A study of Mus musculus with 24 samples.

Results

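Glutathione transferases and cytosolic sulfotransferases were followed in liver and epididymal white adipose tissue (EWAT) of mice given an antisense oligonucleotide against Sox6. The members are all genes whose platform symbol starts with Gsta, Gstm, Gstp, Gstt, Gstk, Gsto, Gstz, Mgst or Sult. They are 41 of the 19057 named genes on the array: 25 glutathione transferases (4 Gsta, 1 Gstk, 7 Gstm, 2 Gsto, 3 Gstp, 4 Gstt, 1 Gstz and 3 Mgst) and 16 Sult genes, read by 64 probes. The SOX6 animals were male C57BL/6J mice that received a SOX6-specific gapmer by intraperitoneal injection, and the control animals were male C57BL/6J mice that received a control gapmer by the same route. Tissue was taken 48 hours after the injection. All mice had free access to normal chow and water under a 12-hour light-dark cycle, and the labels give no age and no sequence of either oligonucleotide. A gapmer is an antisense oligonucleotide that directs cleavage of the RNA it pairs with. Each tissue was taken from 4 SOX6 animals (S1 to S4) and 4 control animals (C1 to C4). The labels do not say whether an animal label stands for the same mouse in both tissues. Liver RNA was measured on 14 arrays (6 SOX6, 8 control) and EWAT RNA on 10 (5 SOX6, 5 control).

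Glutathione transferases join the thiol of glutathione to electrophiles such as drug metabolites and products of lipid peroxidation, and several also reduce organic peroxides. The alpha (Gsta), mu (Gstm), pi (Gstp), theta (Gstt), omega (Gsto) and zeta (Gstz) classes are mainly cytosolic, the kappa enzyme is found in mitochondria and peroxisomes, and the Mgst proteins sit in membranes. Sulfotransferases move a sulfonate group from the donor PAPS to phenols, steroids, bile acids and xenobiotics. Liver is the best known site of both families, and many of the mouse genes lie in clusters of close relatives.

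The share of probes detected on an array was 32.9% to 36.4% for liver and 41.5% to 45.9% for EWAT. Repeat arrays of an animal were averaged, so the number of animals, 4 per group, limits the precision. Sox6 itself was read by 5 probes, of which 4 were detected on 0 arrays. The remaining probe read 5.54, 5.12, 5.74 and 4.94 in EWAT of SOX6 animals and 6.14, 6.19, 5.45 and 5.85 in EWAT of control animals. This is a log2 difference of -0.57 (exact two-sided permutation p = 0.0857, n = 4 each). In liver its difference was -0.15 (exact two-sided permutation p = 0.229, n = 4 each), and it was detected on 2 of 6 SOX6 arrays and 7 of 8 control arrays. Over 10 hepatocyte genes the median level ran from 13.4 to 13.6 (log2) in livers and from 4.36 to 4.56 in EWAT samples. That of 9 adipocyte genes was 4.47 to 4.83 in livers and 11.3 to 12.4 in EWAT samples. Some EWAT samples carried genes of other tissues, as given below with the results they touch.

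Members were tested in a tissue where they had a detected probe. Detection required a p-value under 0.05 against the array's negative controls on every array of an animal, in at least 3 animals. Among the 41 members, 23 were tested in both tissues, 3 in liver alone, 4 in EWAT alone and 11 in neither. The classes differed in this. Of the 25 glutathione transferases, 21 were tested in both tissues and 2 in neither, while of the 16 Sult genes 2 were tested in both and 9 in neither. The members tested in neither were Gstm3, Gstt4, Sult1b1, Sult1c1, Sult2a1, Sult2a2, Sult2a6, Sult3a1, Sult3a2, Sult4a1 and Sult6b1. Of these, Gstm3 was detected on 4 of 14 liver arrays, Sult1b1 on 1 liver array and Gstt4 on 1 of 10 EWAT arrays, and the other members of this group were detected on 0 arrays. Signals of different probes are not on a common scale, so levels below are compared between animals and tissues and never between genes.

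The first comparison asked how the families are divided between liver and EWAT. In control animals 17 members were higher and 7 were lower in liver than in EWAT. The alpha genes, Gstp1, Gstp3, Gstm1, Gstm4, Gstm6, Gstt1, Gsto1, Gstk1, Mgst1 and the sulfotransferases Sult2a8, Sult1d1, Sult1c2 and Sult5a1 were on the higher side, and Mgst2, Mgst3, Gstm2, Gstm5, Gsto2, Gstz1 and Sult1e1 on the lower. These 24 of 30 tested members passed limma's test at an adjusted p under 0.05, against 66% of the 11413 genes tested. A higher level in liver was called for 26.2% of all genes and a lower one for 39.8%. The median difference (liver minus EWAT) was 1.07 over the 30 members and -0.16 over all genes. Detection in a single tissue was enough to enter this comparison, so a member that entered through it was chosen for being high there. This holds for 7 of the 30, of which 6 were called, and their differences are given as a description. Among the 23 members tested in both tissues, 14 were higher and 4 lower in liver, against 30.4% higher and 37.6% lower among the 8253 genes tested in both.

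**Figure D1:**
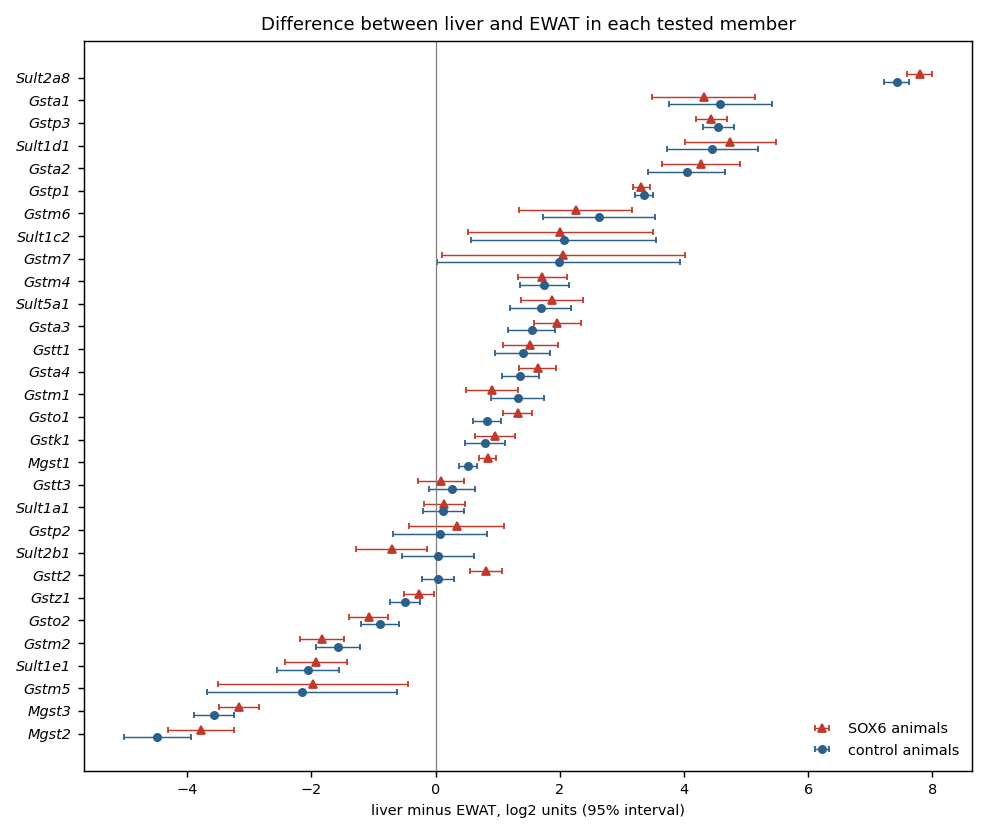
Difference between liver and EWAT (liver minus EWAT, log2 units, horizontal axis) for the 30 tested members, with 95% intervals from limma, in SOX6 animals (red triangles) and control animals (blue circles), 4 animals per tissue and treatment. Sult2a8 lies farthest to the right and Mgst2 farthest to the left in control animals, and Gstt2 and Sult2b1 are the members whose symbols stand apart between the treatments near 0.

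Sult2a8, a hepatic sulfotransferase that acts on bile acids in mice, had the largest positive difference among the members. Its log2 level was 11.62, 11.88, 11.71 and 11.92 in control livers and 4.29, 4.39, 4.34 and 4.41 in control EWAT. Every liver lay far above every EWAT sample, where the probe was detected on 0 of 10 arrays. Liver was therefore at least 134-fold higher in control animals and at least 172-fold higher in SOX6 animals. Here and below, "at least" sets the brighter tissue's mean against the lowest signal that still counted as detected on each array of the dimmer tissue, or the probe's own signal where that was higher.

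Gsta1, an alpha class enzyme that conjugates electrophiles and reduces organic peroxides, read 9.46, 9.03, 9.27 and 8.77 in control livers and 4.75, 4.42, 4.67 and 4.35 in control EWAT. The groups did not overlap (difference 4.58, SE 0.39, limma adjusted p = 2.37e-08), and the probe was detected on 3 of 5 SOX6 and 1 of 5 control EWAT arrays. Its other probes were detected on all 14 liver arrays and 0 of 10 EWAT arrays. Gsta2, its close relative, differed by 4.04 and was detected on 3 of 5 control EWAT arrays. Sult1d1, a sulfotransferase of catecholamines in mice, entered through liver, with detection on all 14 liver arrays and 1 of 5 EWAT arrays in each treatment. The remaining alpha genes differed less, Gsta3 by 1.55 and Gsta4, an enzyme for the lipid peroxidation product 4-hydroxynonenal, by 1.37. A second Gsta3 probe gave 3.61.

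The pi class genes lie side by side on chromosome 19 and did not share one pattern. Gstp3 read 9.35, 9.36, 9.13 and 9.40 in control livers and 4.83, 4.82, 4.60 and 4.76 in control EWAT (difference 4.55, SE 0.12, limma adjusted p = 2.2e-15). Gstp1 was higher in liver by 3.36 (SE 0.07, limma adjusted p = 4.61e-17), and by 3.83 and 3.16 with its other probes. Gstp2 differed by 0.07 (SE 0.36, limma adjusted p = 0.873), with livers spread over a wide range in both treatments. Their promoters, the 250 bases before the start in the RefSeq table of GRCm38.p6, are shown because the 3 neighbours differ in tissue pattern. Capitals mark the AP-1 motif TGAGTCA. All 3 are on the minus strand and are written 5′ to 3′, at chr19:4037913-4038162 for Gstp1, chr19:4042222-4042471 for Gstp2 and chr19:4059448-4059697 for Gstp3.
Gstp1: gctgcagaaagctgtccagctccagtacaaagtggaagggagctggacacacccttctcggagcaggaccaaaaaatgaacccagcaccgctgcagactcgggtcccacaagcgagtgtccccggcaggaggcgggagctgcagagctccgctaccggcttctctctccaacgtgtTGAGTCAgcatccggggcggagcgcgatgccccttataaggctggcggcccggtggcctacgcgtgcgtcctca
Gstp2: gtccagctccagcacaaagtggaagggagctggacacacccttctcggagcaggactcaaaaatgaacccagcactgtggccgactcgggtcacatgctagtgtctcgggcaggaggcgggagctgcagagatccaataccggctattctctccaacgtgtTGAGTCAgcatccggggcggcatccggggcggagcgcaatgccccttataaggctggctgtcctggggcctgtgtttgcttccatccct
Gstp3: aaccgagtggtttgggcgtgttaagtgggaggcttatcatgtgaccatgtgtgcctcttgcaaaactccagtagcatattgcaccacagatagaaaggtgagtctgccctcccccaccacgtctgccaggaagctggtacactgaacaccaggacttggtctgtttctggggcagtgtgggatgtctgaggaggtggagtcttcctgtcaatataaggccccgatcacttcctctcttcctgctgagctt
In these windows Gstp1 and Gstp2 share a longest exact run of 43 bases, and each shares no run longer than 8 bases with Gstp3. The start of an entry need not be the outer end of the gene. Gstp3 is annotated to run to 4059605, so its window reaches into the gene, while those of Gstp1 and Gstp2 do not. What the Gstp3 window lacks therefore holds for that window only. The motif starts 74 bases before the Gstp1 start and 89 bases before the Gstp2 start. It was searched on both strands (reverse complement TGACTCA) and is present in 4.46% of the 32851 promoter entries of the table. The members with it are Gstp1, Gstp2, Gstm5, Mgst2, Sult1c1 and Sult2b1, which are 6 of the 36 members with an entry. Those 36 members hold 48 entries, so the share of members and the share of entries are not in one unit and cannot be compared directly. The core of the antioxidant response element, TGACNNNGC, is present in 10.2% of all entries. Among the 36 members it is present in 4, Gsta3, Gstm5, Gstm7 and Mgst1. No match to one motif overlapped a match to the other in the members' promoters. A match in these letters describes the sequence and is not evidence of a factor bound there, and Gstp1 and Gstp2, which hold the same AP-1 letters, had the tissue differences of 3.36 and 0.07 given above.

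On the lower side, Mgst2, a microsomal enzyme that can make leukotriene C4, read 4.40, 4.44, 5.003 and 4.55 in control livers and 9.57, 8.94, 8.76 and 9.04 in control EWAT. All livers lay near background, with detection on 0 of 6 SOX6 arrays and 1 of 8 control arrays, and the mean difference was -4.48. Among SOX6 animals EWAT was at least 8.85-fold higher than liver. Mgst3, a microsomal peroxidase of the same family, read 9.08, 8.97, 9.20 and 8.58 in control livers and 12.57, 12.40, 12.63 and 12.50 in control EWAT (difference -3.57, SE 0.15, limma adjusted p = 2.43e-12). The groups were separate, and a second probe gave -3.49. Mgst1, the liver-enriched detoxifying member of that family, ran the other way, with 0.52 (SE 0.07, limma adjusted p = 3.1e-06).

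Sult1e1, the estrogen sulfotransferase, was detected on 0 of 14 liver arrays and all 10 EWAT arrays. EWAT was at least 2.22-fold higher in SOX6 animals and at least 2.56-fold higher in control animals. Gsto2, an omega class dehydroascorbate reductase, differed by -0.89 in control animals. It was detected on 0 of 6 SOX6 and 1 of 8 control liver arrays, and EWAT was at least 1.44-fold higher than liver in SOX6 animals. Gstm2 differed by -1.57, and by -1.01 and -1.64 with its other probes. Gstz1, the maleylacetoacetate isomerase of tyrosine breakdown, differed by -0.49 (limma adjusted p = 0.00112). With each array scaled to its median in place of quantile normalization, the median of all genes moved to -0.54, and Gstz1 was then -0.21 (limma adjusted p = 0.278).

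Gstm5 read 8.46, 8.40, 8.30 and 8.42 in control livers and 9.84, 9.70, 12.97 and 9.67 in control EWAT. The EWAT sample of C3 stood apart from the other samples of its group. The difference was -2.15 (SE 0.72, limma adjusted p = 0.0151), and without that sample it was -1.35 (limma adjusted p = 0.0515). Every control EWAT sample, with or without C3, lay above every control liver. The fit shares one spread over all groups, and the EWAT sample of S3, at 13.04 for Gstm5, stayed in it. The p-value without C3 therefore still carries that spread. Other mu class genes moved the same way when the C3 sample was left out. Gstm7 was 1.98 (limma adjusted p = 0.0694) with it and 3.03 (limma adjusted p = 0.00182) without it. Gstm6 was 2.63 with it and 3.13 without it. Sult1c2 was 2.06 with it and 2.81 without it. The remaining mu genes were higher in liver, Gstm4 by 1.75 and Gstm1 by 1.32, but a second Gstm1 probe near background gave -0.09.

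Members with no called difference between tissues in control animals were Gstt3 (0.26), Sult1a1 (0.12), Gstp2 (0.07), Sult2b1 (0.04), Gstt2 (0.04) and Gstm7 as above. A second Gstt2 probe gave -0.37, and the Gstt2 values below come from the first probe alone. Gstp2, Gstt2 and Gstt3 changed sign with median scaling. Among SOX6 animals 18 members were higher and 8 lower in liver, 26 of 30, against 68% of all genes (27.9% higher and 40% lower). Gstt2, a theta class enzyme, was 0.81 higher in liver in SOX6 animals (limma adjusted p = 1.71e-05). Sult2b1, which sulfates cholesterol and related steroids, was at -0.71 in SOX6 animals. It entered through EWAT, where S2 and S4 were its highest samples. Whether the response to the oligonucleotide differed between tissues was tested as the interaction, and 0 of 30 members passed in limma, against 0.0175% of 11413 genes. At an unadjusted p under 0.05 there were 4 members, Gstt2, Mgst1, Gsto1 and Sult2a8, against 6.33% of all genes. All 4 had a higher SOX6 effect in liver than in EWAT. Over all 11413 genes at that p, 391 had a higher effect in liver and 332 a lower one. The Sult2a8 probe was detected on 0 EWAT arrays, so its response there could not be measured. For Gstt2 the interaction was 0.78 (SE 0.17, limma adjusted p = 0.277).

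The second comparison set SOX6 livers against control livers. Most tested members read somewhat higher in SOX6 livers, with the largest differences in the alpha genes Gsta1 and Gsta2 and in Gstt2, but 0 of 26 passed limma's adjusted threshold. Over all genes 21 of 8731 passed (0.241%). The difference was positive in 20 members and negative in 6, against 50.9% positive and 49.1% negative over all genes. The median difference was 0.14 over the members and 0.004 over all genes. At an unadjusted p under 0.05, 9 members were higher, against 4.71% of all genes, and 0 were lower, against 5.21%. Those higher were Gstt2, Gsta2, Sult2a8, Gsta1, Gsto1, Sult1d1, Gsta4, Sult5a1 and Gstt1. All SOX6 livers lay above all control livers in 4 members, Gstt2, Gsta2, Sult2a8 and Gsta4, against 2.53% of all genes. They all lay below the controls in 0 members, against 3.36% of all genes. All 26 members were detected in all 8 livers, so detection did not favour either treatment. Members are not replicates and relatives can share signal, so these counts describe the families and test nothing.

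**Figure D2:**
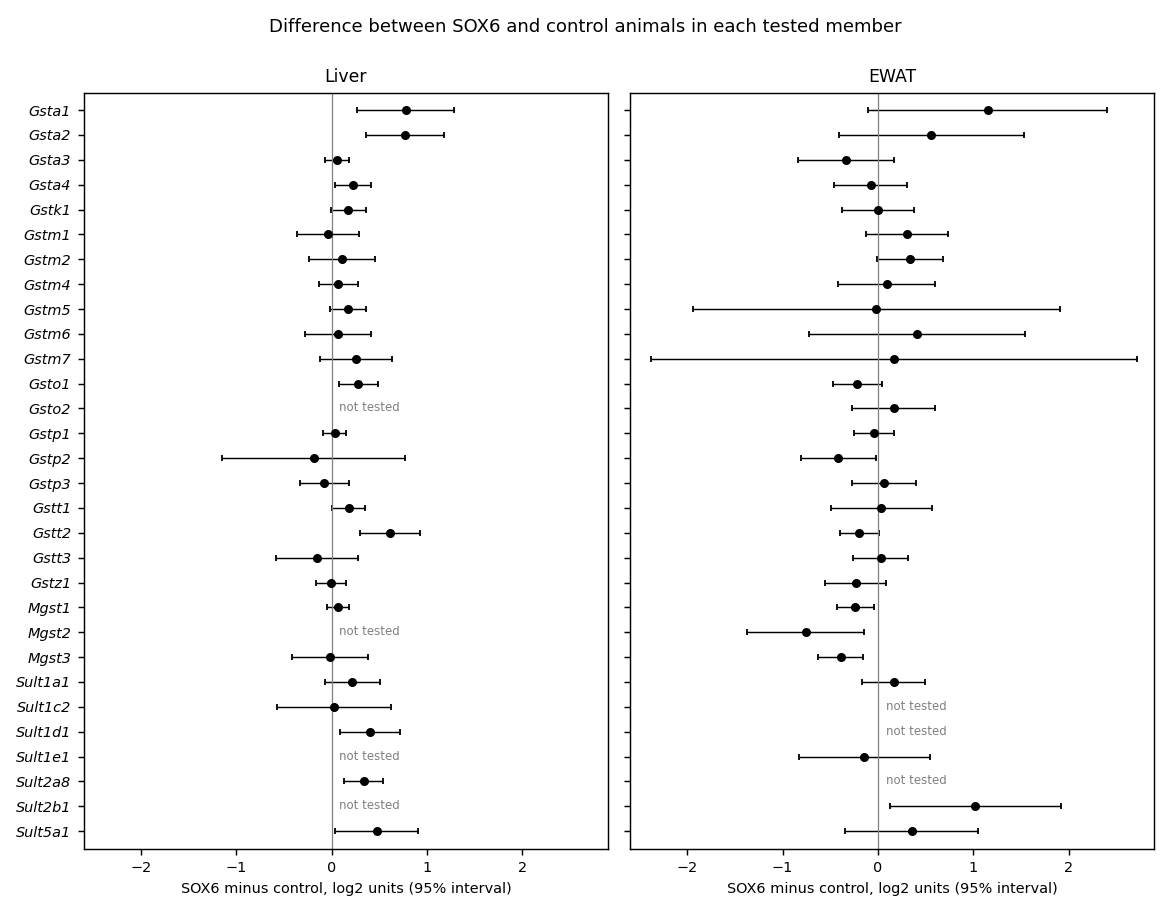
Difference between SOX6 and control animals (log2 units, horizontal axis) with 95% intervals from limma for each tested member, in liver (left panel) and EWAT (right panel), 4 animals per group. In liver 20 of 26 points lie right of 0, and in EWAT the points lie on both sides, with the widest intervals for Gstm5 and Gstm7.

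Gstt2 read 9.96, 9.89, 10.22 and 9.84 in SOX6 livers and 9.56, 8.93, 9.58 and 9.39 in control livers. Every SOX6 liver lay above every control liver, and C2 was the lowest. The difference was 0.61 (SE 0.14, 95% interval 0.29 to 0.93, limma adjusted p = 0.166), and it was 0.73, 0.64, 0.31 and 0.72 within the 4 array chips. Values within chips, here and below, come from the same arrays and are a description. Where the groups do not overlap, their sign largely follows from that. A second, dimmer probe of the gene gave 0.24, and the mean of its probes 0.42 (limma adjusted p = 0.52).

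Gsta2 read 9.51, 9.77, 8.94 and 9.09 in SOX6 livers and 8.86, 8.52, 8.64 and 8.23 in control livers. The groups were separate, with S1 and S2 well above the rest (difference 0.77, SE 0.19, 95% interval 0.36 to 1.18, limma adjusted p = 0.179). Within the chips it was 0.56, 0.69, 0.93 and 0.66. Gsta1, singled out after its values were seen, read 9.89, 10.22, 9.22 and 9.25 in SOX6 livers and 9.23, 8.75, 9.01 and 8.47 in control livers. S3 lay just below C1, and the order of the 4 animals within each group was the same as for Gsta2. The Gsta1 difference was 0.78 (SE 0.23, limma adjusted p = 0.263), and its other probes gave 0.59 and 0.74. Probe sequences were not used here, so how far a probe of Gsta1 also reads Gsta2 is not known, and the same holds for relatives among the mu and pi genes.

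With chip as a fixed term and unaveraged arrays, with the animal as a random block, 4 members passed: Gsta2 at 0.69 (limma adjusted p = 0.00238), Gstt2 at 0.63 (limma adjusted p = 0.00818), Gsta1 at 0.72 (limma adjusted p = 0.0338) and Sult1d1 at 0.44 (limma adjusted p = 0.0446). That setting called 110 genes in all.

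Gsta1 and Gsta2 lie on chromosome 9 on opposite strands. Their promoters are shown because the genes ranked the livers alike within each treatment, with capitals for the runs of 12 or more bases that both share exactly. They are written 5′ to 3′ from the RefSeq table of GRCm38.p6, at chr9:78230419-78230668 on the plus strand for Gsta1 and chr9:78347146-78347395 on the minus strand for Gsta2.
Gsta1: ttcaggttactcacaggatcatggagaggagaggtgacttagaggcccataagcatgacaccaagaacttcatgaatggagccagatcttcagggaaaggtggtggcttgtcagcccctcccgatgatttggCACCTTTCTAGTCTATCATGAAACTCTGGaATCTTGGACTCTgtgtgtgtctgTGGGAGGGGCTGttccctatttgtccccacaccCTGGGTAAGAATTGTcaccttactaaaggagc
Gsta2: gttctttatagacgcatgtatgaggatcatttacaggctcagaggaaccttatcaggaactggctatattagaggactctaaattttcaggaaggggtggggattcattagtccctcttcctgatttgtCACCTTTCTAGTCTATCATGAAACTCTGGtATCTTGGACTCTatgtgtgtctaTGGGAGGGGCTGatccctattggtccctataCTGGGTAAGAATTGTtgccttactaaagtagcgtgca
The shared runs make up 68 bases of each promoter, and the longest is 29 bases. The Gsta2 window reaches into its gene, which is annotated to run to 78347192, and that of Gsta1 does not. Neither motif searched above is present in these windows.

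Sult2a8 read 12.04, 12.07, 12.36 and 12.06 in SOX6 livers and 11.63, 11.90, 11.72 and 11.94 in control livers. The groups did not overlap but their edges were close. The difference was 0.33 (SE 0.09, limma adjusted p = 0.25), and 0.52, 0.34, 0.19 and 0.27 within the chips. The other Sult genes of liver also read higher on average. Sult5a1 differed by 0.47 with the probe used, by 0.14 with a second, dimmer probe and by 0.31 with the mean of its probes. Sult1d1 differed by 0.40, the phenol sulfotransferase Sult1a1 by 0.22 and Sult1c2 by 0.02, and with Sult5a1's 0.47 their limma adjusted p-values were 0.353 to 0.988.

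Among the other transferases with an unadjusted p under 0.05, Gsto1, an omega class thiol transferase, differed by 0.28, Gsta4 by 0.23 and Gstt1 by 0.18 (limma adjusted p of 0.336 to 0.488). The members with the smallest p on the negative side were Gstt3, Gstp3 and Gstp2. Gstt3 read 9.88, 9.15, 9.81 and 9.15 in SOX6 livers and 9.62, 9.85, 9.86 and 9.25 in control livers, and the groups overlapped throughout (difference -0.15, limma adjusted p = 0.848). Gstp3 read 9.06, 9.08, 8.67 and 9.12 in SOX6 livers and 9.10, 9.12, 8.86 and 9.16 in control livers, with S3 and C3 lowest (difference -0.08, limma adjusted p = 0.875).

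Gstp2 varied widely between livers of one treatment. It read 7.62, 7.48, 6.61 and 8.16 in SOX6 livers and 7.36, 8.06, 6.49 and 8.71 in control livers. The lowest values of both groups came from S3 and C3 and the highest from S4 and C4, and the groups overlapped over most of their range. Its difference was -0.19 (95% interval -1.15 to 0.77, limma adjusted p = 0.927).

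With the probes used, several members were close to equal between treatments. Gstp1 differed by 0.03 (95% interval -0.09 to 0.15), Gsta3 by 0.06 (95% interval -0.07 to 0.18), Mgst1 by 0.07 (95% interval -0.05 to 0.18) and Gstz1 by -0.01 (95% interval -0.17 to 0.15). Other probes of these genes did not all read alike. A second Gsta3 probe gave 0.32, and the other Gstp1 probes gave 0.26 and 0.02.

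Cell type marker levels overlapped between the liver groups. The median of the 10 hepatocyte genes was 13.38 to 13.59 in SOX6 livers and 13.37 to 13.56 in control livers. The median of 8 pericentral hepatocyte genes was 9.01 to 9.26 in SOX6 livers and 8.92 to 9.24 in control livers. That of 7 macrophage genes was 7.01 to 7.31 in SOX6 livers and 6.58 to 7.82 in control livers, and that of 6 endothelial genes 6.39 to 6.62 in SOX6 livers and 6.37 to 7.28 in control livers. In these bulk samples a lower share of a cell type and less RNA per cell cannot be told apart.

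**Figure D3:**
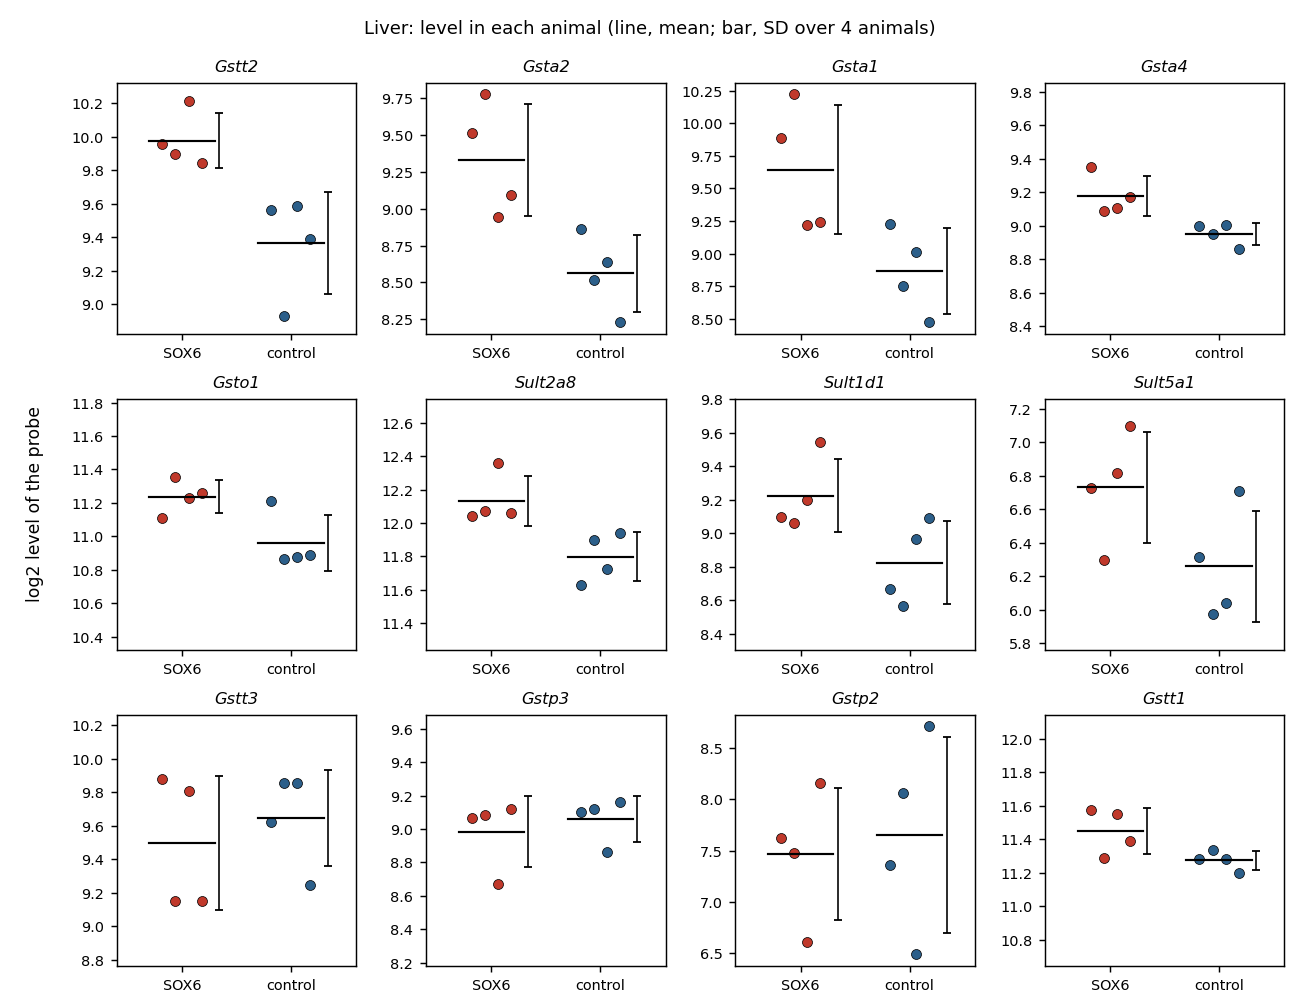
Log2 level of 12 members in each liver (vertical axis, one panel per gene), with SOX6 animals in red on the left and control animals in blue on the right, S1 to S4 and C1 to C4 from left to right in each group. Lines are means and bars are SD over 4 animals. Gstt2, Gsta2, Sult2a8 and Gsta4 do not overlap between the groups, and Gstp2 spans more than the other 11 panels.

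The third comparison set EWAT of SOX6 animals against EWAT of control animals. The membrane-bound transferases Mgst1, Mgst2 and Mgst3 read lower in SOX6 animals, and 0 of 27 members passed limma's adjusted threshold. Some alpha and Sult genes stood high in S2 and S4, and some mu and Sult genes in S3 and C3. Over all genes 0 of 10935 passed (0%), and the smallest adjusted p was 0.841. The difference was positive in 15 members and negative in 12, against 45.1% positive and 54.9% negative over all genes. The median was 0.03 over the members and -0.02 over all genes. With median scaling the median of all genes was 0.10. At an unadjusted p under 0.05, 4 members were lower (Mgst1, Mgst2, Mgst3 and Gstp2), against 2.93% of all genes, and Sult2b1 was higher, against 2.07%. All SOX6 samples lay below all control samples for Mgst3 and Mgst1, against 2.04% of all genes, and above them for 0 members, against 0.741%. Of the 27 members, 22 were detected in all 8 EWAT samples.

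Mgst3 read 12.24, 11.89, 11.91 and 12.17 in EWAT of SOX6 animals and 12.48, 12.33, 12.54 and 12.42 in EWAT of control animals. The groups did not overlap, and S1 and S4 came closest to the controls. The difference was -0.39 (SE 0.10, 95% interval -0.63 to -0.16, limma adjusted p = 0.841). It was -0.20, -0.42, -0.41 and -0.37 within the chips, and -0.28 with a second probe.

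Mgst1 read 13.48, 13.56, 13.48 and 13.51 in EWAT of SOX6 animals and 13.78, 13.69, 13.62 and 13.89 in EWAT of control animals. The SOX6 samples were nearly equal and all lay below the lowest control (difference -0.24, SE 0.09, limma adjusted p = 0.841). Mgst2 read 9.33, 8.60, 7.91 and 8.65 in EWAT of SOX6 animals and 9.82, 9.26, 9.10 and 9.35 in EWAT of control animals. S1 lay among the controls and S3 was the lowest (difference -0.76, SE 0.27, limma adjusted p = 0.841). Within the chips the difference was negative in 4 of 4 for each of the 3 genes. For Mgst1 and Mgst3 this sign largely follows from the separation of the groups, as the arrays are the same. With median scaling the Mgst1, Mgst2 and Mgst3 differences were -0.18, -0.62 and -0.33. Gstp2 differed by -0.42 (95% interval -0.81 to -0.02, limma adjusted p = 0.841).

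The adipocyte gene median was 11.27 to 12.38 in EWAT of SOX6 animals and 11.78 to 12.33 in EWAT of control animals, over 9 of the 10 listed genes. S1 was the highest of all, and S2, S3 and S4, at 11.49, 11.39 and 11.27, lay below every control. The median of 7 macrophage genes was 7.67 to 8.61 in SOX6 animals and 6.90 to 8.32 in control animals. The part of these levels in the Mgst differences was not tested. Without S2 and S4, in which the epididymal genes Spink8 and Defb42 were high, Mgst1, Mgst2 and Mgst3 were -0.27, -0.76 and -0.37. Leaving out S2, S3 and C3 as well as S4, so that S1 alone stands for the SOX6 animals, gave -0.30, -0.14 and -0.17.

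Gsta1 and Sult2b1 had the largest positive differences in EWAT, and both passed the detection rule mainly through SOX6 animals. Gsta1 read 4.49, 7.15, 4.80 and 6.66 in EWAT of SOX6 animals and 4.91, 4.44, 4.79 and 4.37 in EWAT of control animals. S2 and S4 stood far above the other 6 samples, which lay near background (difference 1.15, SE 0.56, limma adjusted p = 0.841). The probe was detected on 3 of 5 SOX6 arrays and 1 of 5 control arrays. Sult2b1 read 4.89, 6.64, 4.84 and 6.14 in EWAT of SOX6 animals and 4.53, 4.44, 4.42 and 5.04 in EWAT of control animals, again with S2 and S4 highest (difference 1.02, SE 0.40, limma adjusted p = 0.841). It was detected on 4 of 5 SOX6 arrays and 1 of 5 control arrays. Gsta2 reached 6.73 in S2 and 5.85 in S4, against 4.44 to 5.46 in the other 6 samples.

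Some genes of epididymal epithelium were also high in S2 and S4. On the scale of all 24 arrays normalized together, Spink8, a Kazal-type protease inhibitor, read 14.21 in S2 and 13.89 in S4 and 4.44 to 4.80 in the other EWAT samples. Defb42, a defensin, read 13.05 in S2 and 12.76 in S4 and 4.30 to 5.28 in the others. Others were not. Adam7 was highest in S3 at 6.96, against 4.57 to 5.09 in the other samples, and Lcn8 was highest in S3 at 6.399, against 4.71 to 5.09. Of the 6 listed epididymal genes on the array, Lcn5 and Rnase9 lay between 4.24 and 4.50 in all 8 samples. The median of the 6 was 4.51 to 4.93 in SOX6 animals and 4.42 to 4.54 in control animals. Without S2 and S4 the Gsta1 difference was 0.02, that of Sult2b1 0.26 and that of Gsta2 -0.18.

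Gstm2 had the second smallest p on the positive side. It read 12.10, 12.78, 12.56 and 12.60 in EWAT of SOX6 animals and 12.19, 11.96, 12.43 and 12.12 in EWAT of control animals. S1 lay within the control range and the other SOX6 samples above it (difference 0.33, SE 0.15, limma adjusted p = 0.841). Its other probes gave 0.19 and 0.65, and without S2 and S4 the difference was 0.16.

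A second pattern, noticed after the values were seen, involved the neighbouring mu genes Gstm5, Gstm6 and Gstm7 on chromosome 3. Gstm5 read 12.98 in S3 and 12.91 in C3, against 9.90 to 10.06 in the other 6 EWAT samples. Gstm7 read 10.20 in S3 and 10.05 in C3, against 5.93 to 6.37 in the others. Gstm6 read 9.69 in S3 and 9.50 in C3, against 7.58 to 8.45 in the others. One sample of each treatment was high, so the differences between treatments were -0.02, 0.17 and 0.41 for Gstm5, Gstm7 and Gstm6. The 95% intervals of Gstm7 and Gstm5 were the widest among the members tested in EWAT, from -2.38 to 2.72 for Gstm7.

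Sult1c2 and Sult1d1, detected in 2 EWAT animals each and so not tested there, followed the same samples. On the scale of all 24 arrays normalized together, Sult1c2 read 7.51 in S3 and 7.34 in C3, against 4.30 to 4.49 in the other EWAT samples. Sult1d1 read 5.83 in S3 and 5.74 in C3, against 4.22 to 4.36 in the others. The S3 and C3 values thus lay within the liver range of 6.37 to 7.91 for Sult1c2 and below all livers for Sult1d1, whose livers read 8.85 to 9.73.

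Most listed genes of ciliated and duct epithelium were highest in the same 2 samples. On that scale Tekt1, a cilium component, read 8.16 in both S3 and C3, against 4.25 to 4.35 in the other EWAT samples. Cdh16, a cadherin of epithelium, read 10.38 in S3 and 10.15 in C3, against 4.36 to 6.19, and the claudin gene Cldn2 read 9.74 in S3 and 9.83 in C3, against 4.26 to 4.87. Pax8, a transcription factor of duct epithelia, was not highest there, with 6.77 in S2, 6.06 in S4, 5.36 in S3 and 5.67 in C3, against 4.29 to 4.41 in the others. The median of the 6 listed genes was 4.40 to 6.92 in EWAT of SOX6 animals and 4.35 to 7.09 in EWAT of control animals. What part these cells had in the mu and Sult values was not tested.

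**Figure D4:**
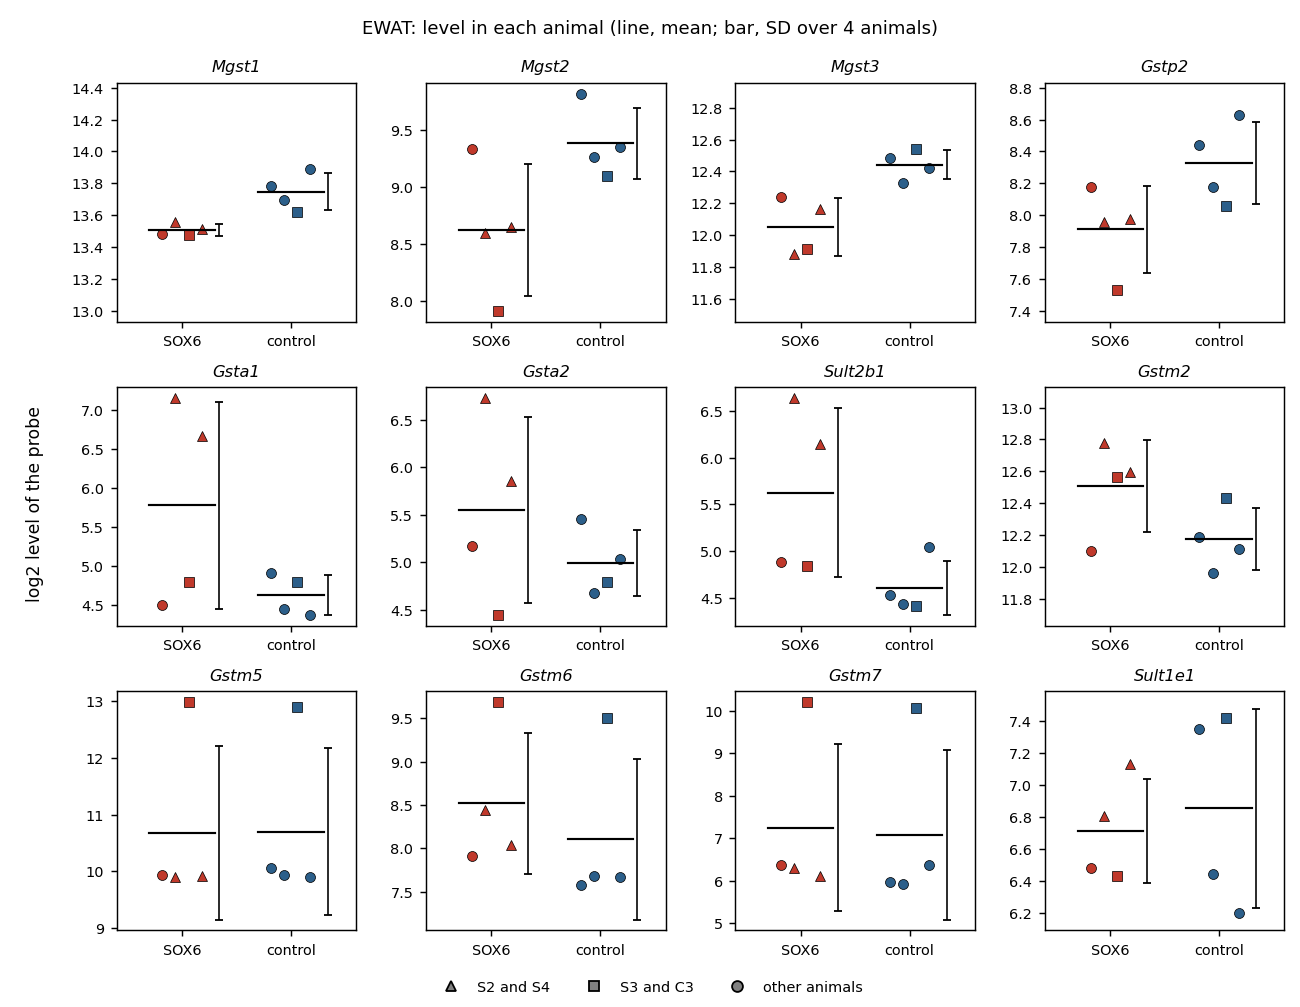
Log2 level of 12 members in each EWAT sample (vertical axis, one panel per gene), with SOX6 animals in red on the left and control animals in blue on the right. Lines are means and bars are SD over 4 animals. Triangles mark S2 and S4, which are highest for Gsta1, Gsta2 and Sult2b1, and squares mark S3 and C3, which are highest for Gstm5, Gstm6 and Gstm7.

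Other genes of the 2 pathways and of related groups were read from 7 lists, and 0 of their genes passed limma's adjusted threshold in liver or EWAT. In liver, glutathione synthesis and redox genes had 16 positive and 10 negative differences among 26 tested, with a median of 0.04. At an unadjusted p under 0.05, 4 were higher and 0 lower. Over all liver genes 50.9% of differences were positive, and 4.71% were higher and 5.21% lower at that p. Cth, which makes cysteine for glutathione, differed by 0.56 (limma adjusted p = 0.167) and Chac2, a glutathione-degrading enzyme, by 0.42 (limma adjusted p = 0.358). Targets of the antioxidant regulator NRF2 had 13 positive and 10 negative differences. Nqo1, a quinone reductase, differed by 0.47 (limma adjusted p = 0.237) and Tkt, transketolase, by -0.30 (limma adjusted p = 0.342).

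Genes of sulfate activation and other sulfotransfer read lower in SOX6 than in control livers in 15 of 17 tested, against 49.1% of all genes. Their median was -0.07. At an unadjusted p under 0.05, 3 were lower, against 5.21% of all genes, and 1 was higher, against 4.71%. Arsb, a lysosomal sulfatase, differed by -0.57 (limma adjusted p = 0.0793) and Csad, which makes hypotaurine from cysteine sulfinate, by -0.66 (limma adjusted p = 0.21). Xenobiotic receptors and their cytochrome P450 targets had 9 positive and 4 negative differences, led by Cyp3a13 at 0.34 (limma adjusted p = 0.146), and the bile acid receptor gene Nr1h4 was at -0.21. Relatives with a similar fold had 4 positive and 5 negative differences, led by Alox5ap, the 5-lipoxygenase activating protein, at 0.53, and Clic4 at 0.26. Male-biased liver genes had 4 positive and 5 negative, with the fatty acid elongase Elovl3 at -0.58 and the oxysterol hydroxylase Cyp7b1 at 0.43. Only 2 of 10 female-biased liver genes were tested, Cyp2a4 at 1.03 and Acot3 at -0.44.

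In EWAT the medians of the 5 lists with more than 3 tested genes were -0.06 to -0.02, near the -0.02 of all genes. The leading genes were Glrx5 (-0.34) and Gss (-0.27) of glutathione redox and synthesis, Entpd5 (-0.38) and Taldo1 (-0.34) of the NRF2 targets, Csad (-0.24) and Papss1 (0.39), which makes the sulfonate donor PAPS. Among relatives and receptors they were Clic1 (0.47), Clic5 (-0.27), Rxra (-0.42) and Alas1 (-0.21). Of the sex-biased genes Cyp7b1 was at 1.11, Prom1 at 1.34 and Cux2 at -0.20. All had limma adjusted p-values of 0.841 or above. Prom1 was high in S2, S3, S4 and C3, the samples with epithelial genes.

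Between tissues of control animals, glutathione synthesis and redox genes were higher in liver in 16 and lower in 8 of 28 tested, against 26.2% higher and 39.8% lower over all genes, and sulfate genes were higher in 9 and lower in 6 of 17. Xenobiotic receptors and their targets were higher in 11 and lower in 2 of 14. Relatives with a similar fold were higher in 2 and lower in 7 of 17, and NRF2 targets higher in 12 and lower in 6 of 24. All 9 tested male-biased genes and 2 of 5 female-biased ones were higher in liver.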

How the data were processed

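Per the submitters' processing notes the arrays were processed with GenomeStudio, whose version is not given in the sources used here. Per the file headers, the authors deposited probe intensity values with a detection p-value for each probe and array. The log2 values deposited by the authors are quantile normalized and were used as an alternative. Within each tissue, neqc of limma 3.58.1 (R 4.3.3) corrected the background of the intensities, added an offset of 16, normalized by quantiles and took log2, which compresses differences of dim probes. Repeat arrays of an animal were averaged, giving n = 4 animals per group. Where a gene had several detected probes, the one with the highest mean was used. Symbols are those of the platform annotation, in which 34885 of 45281 probes name 1 gene, 18 several and 10378 none, updated through RefSeq of GRCm38.p6 (34807 matched). Two-sided tests were limma's lmFit and eBayes (intensity trend on), with Benjamini-Hochberg adjustment over all genes of a tissue, or over all genes of a joint fit of 24 arrays for tissue contrasts. Standard errors and 95% intervals come from limma. The tests were checked on simulated data. Values per animal are given for members with an adjusted p under 0.05, for the 3 members with the smallest p per direction in each tissue and for the 3 largest tissue differences per direction. The members and lists were chosen with earlier results of these data known. Each of the 4 chips held 6 arrays of both treatments and tissues. Whether equal animal numbers pair the samples was not settled, and the main tests did not pair them. Deviations correlated above 0.1 in 1 of 4 pairs in liver (highest 0.33) and 3 of 4 in EWAT (highest 0.66, S3 with C3). A fit with the replicate number as a block is given below.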

Additional observations from a re-analysis of the deposited data

Results flagged for a closer look

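In 12 of 106 groups of 4 animals, 1 animal stood apart from the others by Dixon's criterion, which chance gives in about 1 of 20 groups. Among EWAT samples, S3 read 12.98 and C3 12.91 for Gstm5, S3 read 10.20 and C3 10.05 for Gstm7, and C3 read 9.50 for Gstm6. Tekt1, Cdh16 and Cldn2 were also highest in these samples. Also in EWAT, Gstp3 was 5.26 in S4 against 4.86 to 4.92 in the other SOX6 animals, and Gsta4 was 8.77 in C1 against at most 8.10 in the other control animals. Among SOX6 livers, Sult2a8 was 12.36 in S3 against 12.04 to 12.07, Gstk1 was 12.11 in S2 against 11.83 to 11.87, and Gstp3 was 8.67 in S3 against 9.06 to 9.12. Among control livers, Gsto1 was 11.21 in C1 against 10.86 to 10.89, and Gstp1 was 14.27 in C3 against 14.39 to 14.41.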

How the results depend on the processing

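Over 27 results and 520 alternatives, 502 kept the direction and the side of the threshold or stayed near the main count or value. Some could hardly do otherwise. Leaving out a SOX6 animal cannot move the size of a difference between tissues of control animals. A member that had not passed counted as kept while its direction held and it still did not pass. With chip as a fixed term and unaveraged arrays, 4 members passed in liver, with Gstt2 at 0.63 and Gsta2 at 0.69. Without a detection filter the liver median was 0.0561. The 4 members lower in EWAT at an unadjusted p under 0.05 became 1 with median scaling, 7 with the replicate number as a block and 1 without S2 and S4. Members higher at that p were 1 in the main setting and 3, 2 and 0 in these settings. Genes at that p in either direction, of 10935 tested, were 546 in the main setting and 407, 985 and 237 in these. With median scaling the median of all genes in EWAT was 0.10, against -0.02 in the main setting. With the block 8 members were higher and 0 lower in liver at an unadjusted p under 0.05 (9 and 0 without it). In either tissue 0 members passed the adjusted threshold with the block. Liver genes at that p in either direction were 1022 with the block and 866 without it, of 8731. Leaving out each animal in turn gave 6 to 10 members higher in liver at an unadjusted p under 0.05. Genes at that p in either direction then numbered 611 (without C2) to 1011 (without C4) of 8731. Members whose SOX6 livers all lay above the controls became 5 to 9 (4 with all animals), with 9 without S2 and 7 without C1. Leaving out an animal can only keep or raise that count, for members as for all genes, so the rise is no check of it. The share over all genes was not counted with an animal left out, so the 5 to 9 members cannot be judged against it. In EWAT 2 to 5 members were lower with an animal left out, with 2 without C1 and 2 without C4. Genes at that p in either direction were there 286 (without S2) to 1217 (without C3) of 10935. The liver median was 0.10 to 0.18 and the EWAT median -0.03 to 0.06. Members that differed between tissues numbered 23 to 25. Gstp3 in liver ranged from -0.144 without C3 to 0.0283 without S3, Gstp2 in liver ranged from -0.576 without C3 to 0.165 without C4, with 0.0991 without S3, and Gsta1 in EWAT was -0.0777 without C3, S2, S3 and S4. Gstm5 between tissues ranged from -2.45 to -1.31, with -1.31 (limma adjusted p = 0.0875) without C3 in both tissues and -1.35 without its EWAT sample alone. The EWAT sample of S3, also high for Gstm5, stayed in the shared spread of both fits. The causes were not tested. The 3 counts at unadjusted p or without overlap, and leaving out the EWAT sample of C3, were added after the data were seen. Probes near background, such as those of Gsta1, Sult2b1 and Gstp3 in EWAT, limit what can be measured there.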
